A study of Homo sapiens with 4 samples.

Results

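The genes described here are 9 named components of the epithelial tight junction: the claudins CLDN1, CLDN2, CLDN3, CLDN4, CLDN7 and CLDN18, occludin (OCLN), zonula occludens protein 1 (TJP1) and junctional adhesion molecule A (F11R). Their probe sets were every one that the platform annotation assigns to a single symbol among these names, without regard to the measured values. That gave 18 of the 54613 probe sets tested and 8 of the 9 genes; the annotation used here gave no probe set to F11R alone, so F11R was not analysed. The samples were 2 arrays of AGS cells exposed for 8 h to lipopolysaccharide (LPS, the glycolipid of the bacterial outer membrane) of Helicobacter pylori at 10 µg/ml, and 2 arrays of AGS cells that received fresh medium without LPS for the same time. AGS is an established cell line from a human gastric adenocarcinoma, and all 4 arrays carried that line with no further genotype or transfection in the labels. The design speaks of 2 independent experiments; each group has an array numbered 1 and an array numbered 2, and the labels do not say that a number marks a shared experiment. The comparison asks whether purified LPS, without live bacteria, changes transcript levels in a gastric epithelial line.

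Tight junctions seal the space between neighbouring epithelial cells near their apical border. Claudins are membrane proteins with 4 membrane-spanning segments whose extracellular loops meet those of the next cell: some close the gap to ions, and others form pores through it. Occludin and junctional adhesion molecules lie in the same strands, and the zonula occludens scaffolds bind their cytoplasmic tails and tie them to actin. In the stomach this barrier keeps acid and luminal bacteria out of the mucosa, and live H. pylori is known to disturb it.

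Array medians lay between 6.31 and 6.36 on the log2 scale, and arrays correlated at 0.994 to 0.997 across probe sets (probe sets are not independent replicates). Marker lists are given on the brightest probe set of each gene. Epithelial markers were bright: all 7 measured (EPCAM, CDH1, KRT8, KRT18, KRT19, ELF3 and ESRP1) lay above the median probe set on that choice, while 2 of their 12 probe sets, from CDH1 and KRT19, lay below it. The list averaged 12.17 and 12.23 on the LPS arrays and 12.19 and 12.27 on the untreated arrays. The leukocyte marker PTPRC was dim, at 4.86 and 5.00 on the LPS arrays and 5.16 and 5.07 on the untreated arrays. The endothelial marker CDH5 stood at 4.90 and 4.84 against 4.78 and 4.76 in the same order. Other markers of these lists were brighter. Among leukocyte markers, LYZ was at the 88.7th percentile of brightness over all probe sets and CD3E at the 63.3rd. Among endothelial markers, TEK was at the 72.1st and PECAM1 at the 63.4th. The leukocyte list (2 of 4 measured genes above the median) ranged over arrays from 6.63 to 6.72 with LPS and from 6.73 to 6.85 without, the endothelial list (2 of 5) from 6.00 to 6.14 and from 5.97 to 6.06, and the fibroblast list (4 of 6) from 6.47 to 6.68 and from 6.43 to 6.49. The part of other cells in the results below was not tested.

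No tight junction probe set passed the test of LPS-treated against untreated cells. Of the 18 probe sets, 0 passed limma's adjusted threshold of 0.05 (adjusted p = 1 for each), against 0% of all 54613 probe sets. An unadjusted p under 0.05 was found for 0 of the 18, against 2.6% of all probe sets (1.29% higher and 1.31% lower with LPS). This fit did not pair arrays by number, and the closing section gives the counts of a fit that did. The LPS minus untreated differences ran from -0.22 to 0.13 on the log2 scale. Of the 18, 10 were above 0 and 8 below, against 30352 above and 24260 below over all 54613 probe sets. The median over the 18 was 0.015, the same as the 0.015 over all probe sets, and without LPS replicate 2 it was -0.037. The median size of the difference, regardless of sign, was 0.06 for these probe sets and 0.08 for all. Every one of the 18 intervals (95%, limma) lay between 0.689-fold and 1.40-fold of the untreated level. The half-width of those intervals ran from 0.15 to 0.40. In this fit, which did not pair arrays by number, shifts within that half-width did not reach even an unadjusted p of 0.05 (limma). The adjusted threshold asks for larger shifts: over all probe sets, differences ran from -1.02 to 1.21 and none passed it. For a single probe set, the smallest two-sided p that an exact permutation of 2 against 2 arrays allows is 0.333. In bulk samples such as these, a difference in the number of cells with a transcript and in its amount per cell cannot be told apart.

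**Figure D1:**
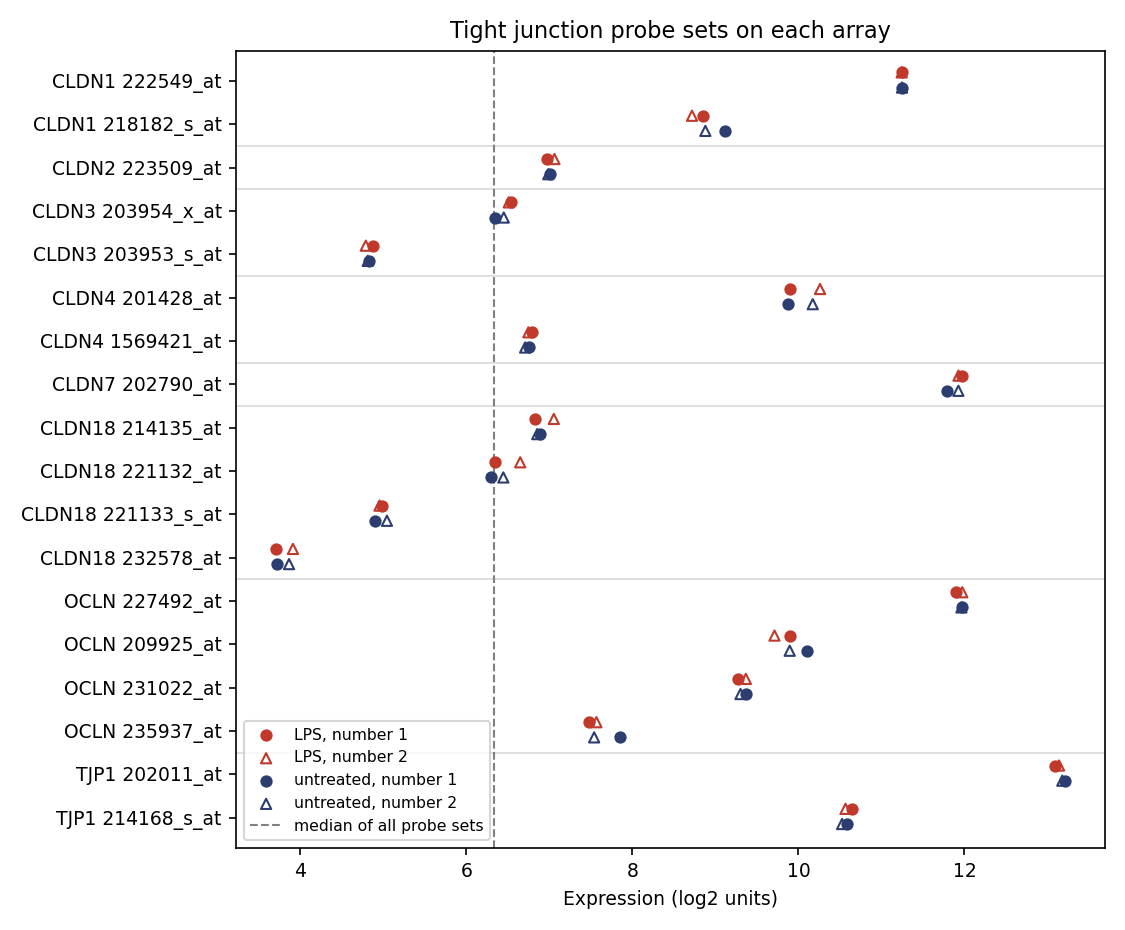
Log2 expression (horizontal axis) of the 18 tight junction probe sets on each array; red symbols are LPS-treated cells, blue symbols untreated cells, filled circles arrays numbered 1, open triangles arrays numbered 2, and the dashed line the median over all probe sets (6.33). The 4 symbols of a row lie close together, with 15 rows to the right of the dashed line and 3 to its left.

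Brightness depends on each probe's affinity as well as on the transcript, so levels are not ordered between genes. By brightness, 15 of the 18 probe sets lay at or above the median over all probe sets. The 3 below it were the second probe set of CLDN3 and a pair from CLDN18, and a dim probe set may report background instead of transcript. Probe sets ending in _s_at or _x_at, which can share signal with related transcripts, made up 5 of the 18.

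CLDN1 is a barrier-forming claudin found widely in epithelia. Its brighter probe set, 222549_at, had 11.24 and 11.24 on the LPS arrays and 11.24 and 11.25 on the untreated arrays. These were the steadiest values of the 18 probe sets, with a difference of -0.0011 and an interval of 0.870-fold to 1.15-fold (limma). The dimmer probe set, 218182_s_at, had 8.85 and 8.72 with LPS and 9.12 and 8.88 without, so both LPS arrays lay below both untreated arrays. Its difference of -0.22 ± 0.13 (SE) was the lowest of the 18 and did not pass the test (limma, unadjusted p = 0.153, adjusted p = 1). The interval of 218182_s_at ran from 0.689-fold to 1.08-fold. Without single arrays, the difference of 218182_s_at ran from -0.34 to -0.10.

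CLDN2 is the claudin best known for forming cation pores in leaky epithelia such as the intestine. Its single probe set had 6.97 and 7.06 on the LPS arrays, against 7.01 and 6.99 on the untreated arrays. The groups overlapped, with a difference of 0.02 ± 0.12 (SE; limma, unadjusted p = 0.867).

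CLDN3 and CLDN4 are sealing claudins that serve as receptors for the enterotoxin of Clostridium perfringens, and their genes neighbour each other in RefSeq's GRCh38.p14 annotation. For CLDN3, probe set 203954_x_at had 6.53 and 6.51 in LPS-treated cells and 6.35 and 6.45 in untreated cells. Both LPS arrays lay above both untreated arrays, by 0.12 ± 0.11 on average (SE; limma, unadjusted p = 0.319). The other CLDN3 probe set, 203953_s_at, lay below the median over all probe sets, at 4.87 and 4.79 with LPS and 4.83 and 4.81 without, and its groups overlapped.

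CLDN4 showed a wide spread that went with the array number and not with LPS. Probe set 201428_at had 9.90 on LPS array 1 and 10.26 on LPS array 2, against 9.87 on untreated array 1 and 10.17 on untreated array 2. The arrays numbered 2 were thus higher by 0.36 within the LPS group and by 0.30 within the untreated group, while LPS minus untreated was 0.03 within number 1 and 0.09 within number 2. Its interval, 0.790-fold to 1.38-fold (limma, unadjusted p = 0.724), was the widest of the 18. The dimmer probe set 1569421_at did not repeat the spread by array number: it had 6.80 and 6.75 with LPS and 6.76 and 6.71 without, a difference of 0.04 ± 0.11 (SE).

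CLDN7 lies along the basolateral membrane as well as in tight junctions of many epithelia. It was bright in every sample, at 11.97 and 11.93 on the LPS arrays and 11.78 and 11.93 on the untreated arrays. Both LPS arrays lay above both untreated arrays, but the margin within number 2 was 0.002, and the difference of 0.09 ± 0.09 (SE) did not pass the test (limma, unadjusted p = 0.323). Of the member genes with a promoter in the RefSeq table, CLDN7 held the most copies of the E-box CAGGTG, the element through which Snail-type repressors are known to lower claudin genes and OCLN in mouse cells. The 300-base window around its downstream start is shown for that reason, with E-boxes (CAGGTG on either strand) and GC boxes (GGGCGG on either strand) in capitals. It lies at chr17:7262429-7262728 on the minus strand of GRCh38.p14 and holds 5 E-boxes and 2 GC boxes, none overlapping another.

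CLDN7: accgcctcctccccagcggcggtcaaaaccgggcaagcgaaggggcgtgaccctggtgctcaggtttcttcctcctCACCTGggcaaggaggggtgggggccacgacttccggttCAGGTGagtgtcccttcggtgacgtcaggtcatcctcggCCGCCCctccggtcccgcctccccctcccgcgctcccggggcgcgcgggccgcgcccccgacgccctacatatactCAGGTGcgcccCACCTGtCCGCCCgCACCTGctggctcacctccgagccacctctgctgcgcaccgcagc

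The same search covered 15 windows of the 8 measured members, each from 250 bases before to 50 after a start. E-boxes were in 6 of the 15 windows, against 20.6% of all 35116 windows, and GC boxes in 9, against 45%. The AP-1 motif TGANTCA was in 2 windows (CLDN2 and CLDN4), against 7.71% of all, and the NF-kB motif in 1 window (CLDN1), against 11.3%; both strands were searched. Windows of the same gene can overlap, a match is not a bound site, and no binding was measured.

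CLDN18 is the claudin that marks the stomach lining, where it limits the leak of acid; the gene has a lung and a stomach form that arise from alternative first exons. The RefSeq table accordingly holds 2 windows for it, both on the plus strand of GRCh38.p14, and both are shown because the array's probe sets may not tell the forms apart. The table does not say which form starts in which window. The upstream window, chr3:137998566-137998865, held 1 E-box and the downstream window, chr3:138009915-138010214, held 2 GC boxes, again in capitals.

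CLDN18 upstream start: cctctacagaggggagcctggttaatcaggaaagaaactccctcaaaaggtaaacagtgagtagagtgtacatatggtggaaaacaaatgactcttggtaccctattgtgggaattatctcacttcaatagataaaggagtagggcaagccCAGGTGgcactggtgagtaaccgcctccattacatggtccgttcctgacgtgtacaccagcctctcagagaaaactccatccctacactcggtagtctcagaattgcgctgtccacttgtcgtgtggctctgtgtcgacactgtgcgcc

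CLDN18 downstream start: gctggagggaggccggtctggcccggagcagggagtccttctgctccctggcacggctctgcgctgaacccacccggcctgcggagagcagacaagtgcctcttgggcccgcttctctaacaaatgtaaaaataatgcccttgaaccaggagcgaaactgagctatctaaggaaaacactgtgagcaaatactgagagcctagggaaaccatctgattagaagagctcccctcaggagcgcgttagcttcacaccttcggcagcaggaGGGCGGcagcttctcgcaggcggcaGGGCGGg

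None of the 4 probe sets of CLDN18 was above the 60.1st percentile of brightness over all probe sets, and none separated the groups. Probe set 214135_at had 6.83 and 7.05 on the LPS arrays, against 6.89 and 6.85 on the untreated arrays. For 221132_at the values were 6.35 and 6.65 in LPS-treated cells and 6.29 and 6.45 in untreated cells. In both probe sets LPS array 2 was the highest of the 4 arrays, and the groups overlapped. Their differences were 0.07 ± 0.13 and 0.13 ± 0.15 (SE; limma, unadjusted p = 0.631 and 0.412). Without LPS replicate 2 they were -0.05 and -0.02, so the sign of both rests on that array.

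The remaining CLDN18 probe sets lay below the median over all probe sets. Probe set 221133_s_at had 4.99 and 4.95 with LPS and 4.90 and 5.04 without, and 232578_at had 3.71 and 3.91 with LPS and 3.72 and 3.87 without. The second of these stood at the 3.27th percentile of brightness over all probe sets, so its level may be background. The upper bounds of the 4 CLDN18 intervals (limma) ran from 1.19-fold to 1.40-fold.

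Occludin, a membrane protein of the MARVEL family with 4 membrane-spanning segments, was measured by 4 probe sets, and the difference was below 0 in each. Over all 54613 probe sets, 24260 were below 0. Leaving out single arrays turned the sign for 227492_at (-0.070 to 0.0072) and 231022_at (-0.065 to 0.029), and not for the rest of the gene's probe sets. The brightest, 227492_at, had 11.90 and 11.97 on the LPS arrays and 11.97 and 11.96 on the untreated arrays. Its groups overlapped, with a difference of -0.03 ± 0.08 (SE; limma, unadjusted p = 0.695). Probe set 231022_at was as level, at 9.27 and 9.37 with LPS and 9.37 and 9.30 without.

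The other OCLN probe sets had larger differences, and neither passed the test. Probe set 209925_at had 9.90 and 9.71 in LPS-treated cells, against 10.11 and 9.90 in untreated cells. LPS array 1 and untreated array 2 coincided to within 0.01, so the groups overlapped, and LPS minus untreated was -0.21 within number 1 and -0.18 within number 2. The mean difference was -0.20 ± 0.13 (SE; limma, unadjusted p = 0.169). Probe set 235937_at had 7.48 and 7.57 with LPS and 7.85 and 7.54 without, where untreated array 1 alone stood apart from the rest. Its difference of -0.17 ± 0.15 (SE; limma, unadjusted p = 0.280) came to -0.37 within number 1 and 0.03 within number 2, and without untreated replicate 1 it was -0.02.

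TJP1 encodes the scaffold that binds claudin and occludin tails through its PDZ and guanylate kinase domains. Its brighter probe set, 202011_at, was at the 99.3rd percentile of brightness over all probe sets. It had 13.08 and 13.14 on the LPS arrays and 13.21 and 13.18 on the untreated arrays, so that both LPS arrays lay below both untreated arrays. The difference was -0.08 ± 0.06 (SE; limma, unadjusted p = 0.228), and its interval, 0.848-fold to 1.05-fold, was the narrowest of the 18. The other probe set, 214168_s_at, leaned the opposite way within its error, at 10.65 and 10.57 with LPS and 10.59 and 10.53 without (0.05 ± 0.09, SE).

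**Figure D2:**
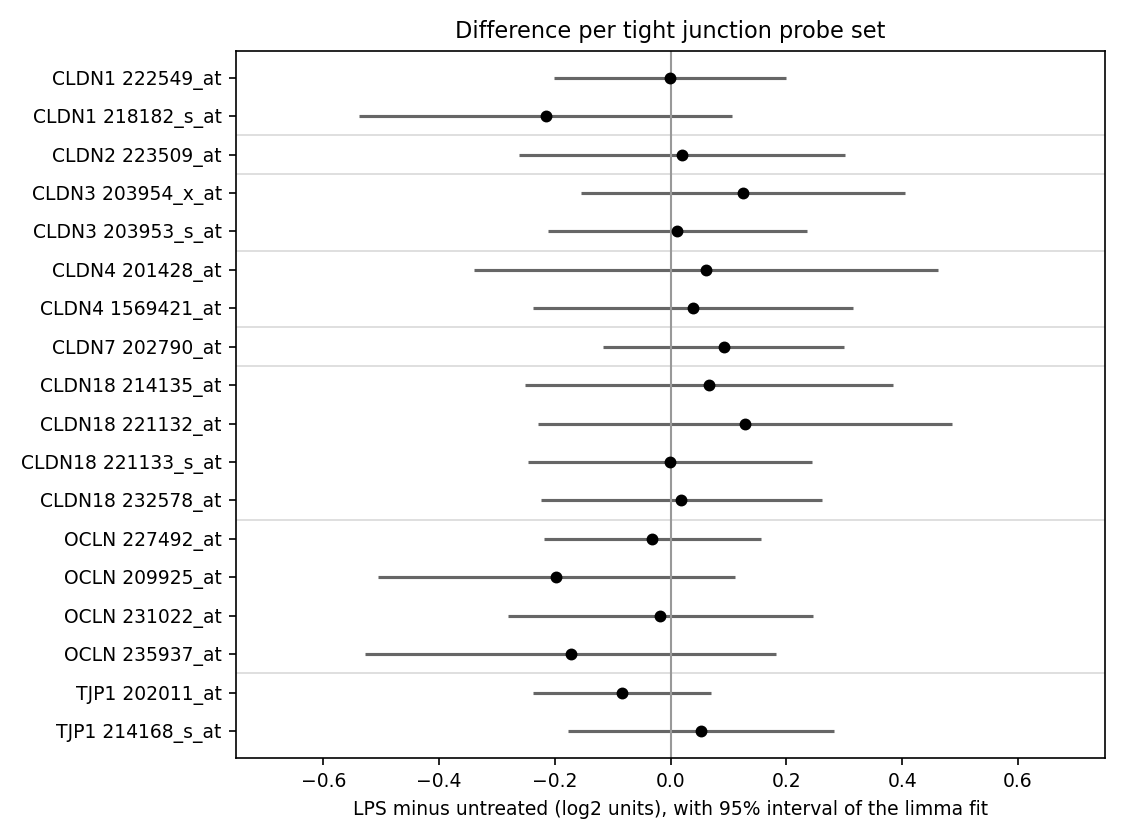
LPS minus untreated on the log2 scale (points) with the 95% interval of the limma fit (bars) for each of the 18 tight junction probe sets, over 2 LPS and 2 untreated arrays. Every bar crosses 0, and the points run from -0.22 for CLDN1 218182_s_at to 0.13 for CLDN18 221132_at.

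Across the probe sets, the arrays of the groups did not overlap for 4 of 18: 203954_x_at of CLDN3 and 202790_at of CLDN7 were higher with LPS, and 218182_s_at of CLDN1 and 202011_at of TJP1 were lower. Over all probe sets 29.5% had no overlap, 17.6% with LPS higher and 11.9% with LPS lower, so the count is near the background. In 16 of 18 the gap between the arrays of at least 1 group was larger than LPS minus untreated, as in 81% of all probe sets. The exceptions were 203954_x_at of CLDN3 and 202011_at of TJP1.

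Taken within array numbers, 6 of 18 probe sets were above 0 within both numbers, against 31% of all probe sets. Another 3 were below 0 within both, against 23.8%. Those 3 were 218182_s_at of CLDN1, 209925_at of OCLN and 202011_at of TJP1. The other 9 had differences of opposite sign. The counts of shared sign, 6 and 3, are near the background.

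**Figure D3:**
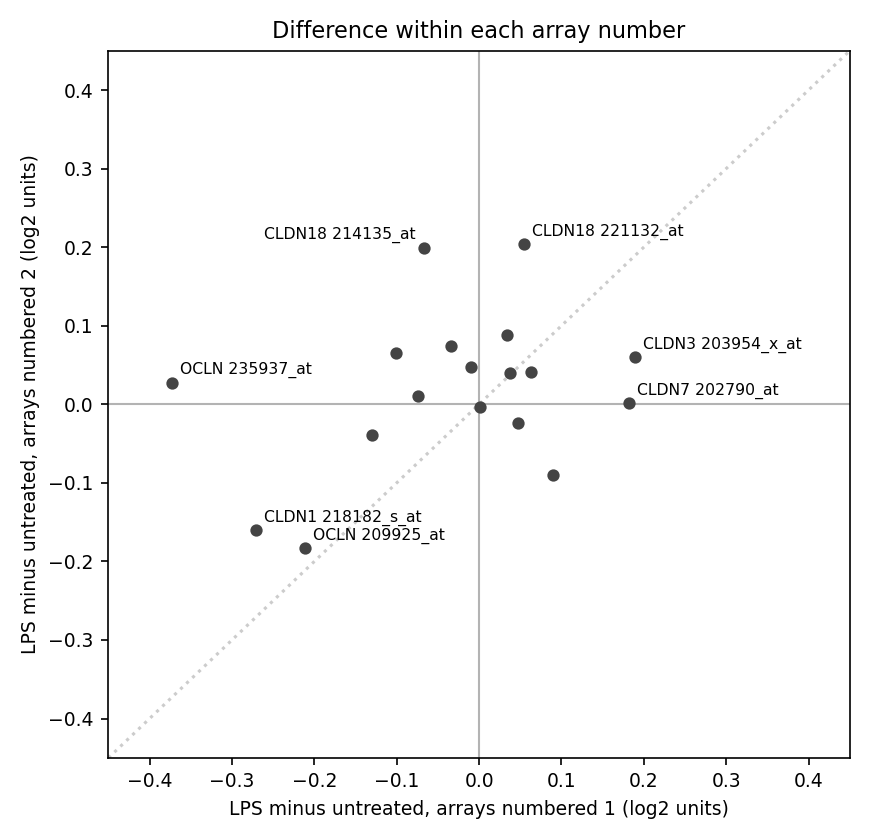
LPS minus untreated (log2 units) within number 1 (horizontal axis) and within number 2 (vertical axis), 1 point per tight junction probe set, with the dotted line marking equal differences and labels on points beyond 0.15 on either axis. CLDN1 218182_s_at (-0.27 and -0.16) and OCLN 209925_at (-0.21 and -0.18) lie near the dotted line below 0, and OCLN 235937_at (-0.37 and 0.03) lies far from it.

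Other genes of the tight junction were taken from 6 lists of 58 symbols, of which 50 had a probe set of their own and 119 probe sets were tested. None passed the adjusted threshold (limma, adjusted p = 1), and 1 had an unadjusted p under 0.05, or 0.840%, against 2.6% of all probe sets. The median difference was 0.025, against 0.015 over all probe sets. It ran from -0.03 for the other claudins to 0.06 for scaffold and plaque proteins, with 0.05 for tricellular and MARVEL proteins and 0.01 for immunoglobulin-like junction molecules. For apical polarity complexes it was 0.0043 and for junction traffic and contractility -0.0018.

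The lone probe set under that unadjusted p was 201161_s_at of YBX3, a transcription factor known to bind TJP1 protein's SH3 domain. It had 12.30 and 12.16 on the LPS arrays, against 12.02 and 12.00 on the untreated arrays. Both LPS arrays lay above both untreated arrays, which a choice by p favours. The same held for 6 of the 32 scaffold and plaque probe sets, against 17.6% of all. The difference of 201161_s_at was 0.21 ± 0.08 (SE; limma, unadjusted p = 0.0409, adjusted p = 1), while the other YBX3 probe sets differed by -0.11, 0.12 and, on the brightest, 0.04. MAGI3, a scaffold of the membrane-associated guanylate kinase family, had 8.53 and 8.49 in LPS-treated cells and 8.74 and 8.72 in untreated cells on 226770_at. That difference of -0.22 ± 0.11 (SE) did not pass (limma, unadjusted p = 0.0934), and its other probe sets differed by 0.04 and 0.08.

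Among the polarity genes, PARD6B encodes an adaptor of the apical PAR complex and PRKCI its atypical protein kinase C. PARD6B had 11.73 and 11.46 on the LPS arrays and 12.06 and 11.78 on the untreated arrays on 235165_at, a difference of -0.32 ± 0.14 (SE; limma, unadjusted p = 0.0549). All 3 PARD6B probe sets had differences below 0, the others at -0.21 and -0.06. PRKCI had 10.60 and 10.74 with LPS and 10.96 and 10.84 without on 213518_at, a difference of -0.23 ± 0.10 (SE; limma, unadjusted p = 0.0675). Its other probe sets differed by -0.43 and, on the brightest, 0.08. Both LPS arrays lay below both untreated arrays for these PARD6B and PRKCI probe sets, and neither passed the test. They were named for the smallest p of their list, a choice that favours groups without overlap. In that list 13 of 32 probe sets had no overlap, against 29.5% of all.

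CXADR, an immunoglobulin-like adhesion molecule of the tight junction and receptor of coxsackieviruses and adenoviruses, had 9.58 and 9.71 in LPS-treated cells and 9.98 and 9.79 in untreated cells on 239155_at. The difference was -0.24 ± 0.12 (SE; limma, unadjusted p = 0.0868). Its probe set 226374_at differed by -0.19 ± 0.12 with overlapping arrays, and the other CXADR probe sets by -0.22 and, on the brightest, 0.02. MYLK, the myosin light chain kinase that contracts the junctional actin ring, gave opposite signs on probe sets below the median of all, -0.42 ± 0.20 on 1568770_at and 0.19 ± 0.10 on 224823_at (SE; limma, unadjusted p = 0.0878 and 0.117), with -0.08 to 0.03 on its other 3 probe sets. Leaving out single arrays moved the difference from -0.47 to -0.18 for PARD6B 235165_at, from -0.31 to -0.06 for CXADR 226374_at and from -0.64 to -0.19 for MYLK 1568770_at.

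Of the other claudins, CLDN11, best known from myelin and the testis, differed by -0.21 ± 0.10 on 228335_at and CLDN23 by -0.16 ± 0.10 on 228706_s_at (SE; limma, unadjusted p = 0.0772 and 0.145). Both probe sets were dim, at 3.97 and 3.82 on average with LPS and 4.17 and 3.99 without, and may be background. The other CLDN11 probe sets differed by -0.05 and, on the brightest, 0.09, and those of CLDN23 by 0.04 and, on the brightest, -0.15. Of the tricellular and MARVEL proteins, 8 of 10 probe sets were above 0, against 30352 of all 54613. The 2 with the smallest p were those below 0. The tricellular gene ILDR2 differed by -0.11 ± 0.11 on 229380_at and 0.12 on its other probe set, and the MARVEL gene MARVELD3 by -0.10 ± 0.12 on 239148_at and 0.03 and 0.09 on its others (SE; limma, unadjusted p = 0.353 for 229380_at and 0.429 for 239148_at).

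**Figure D4:**
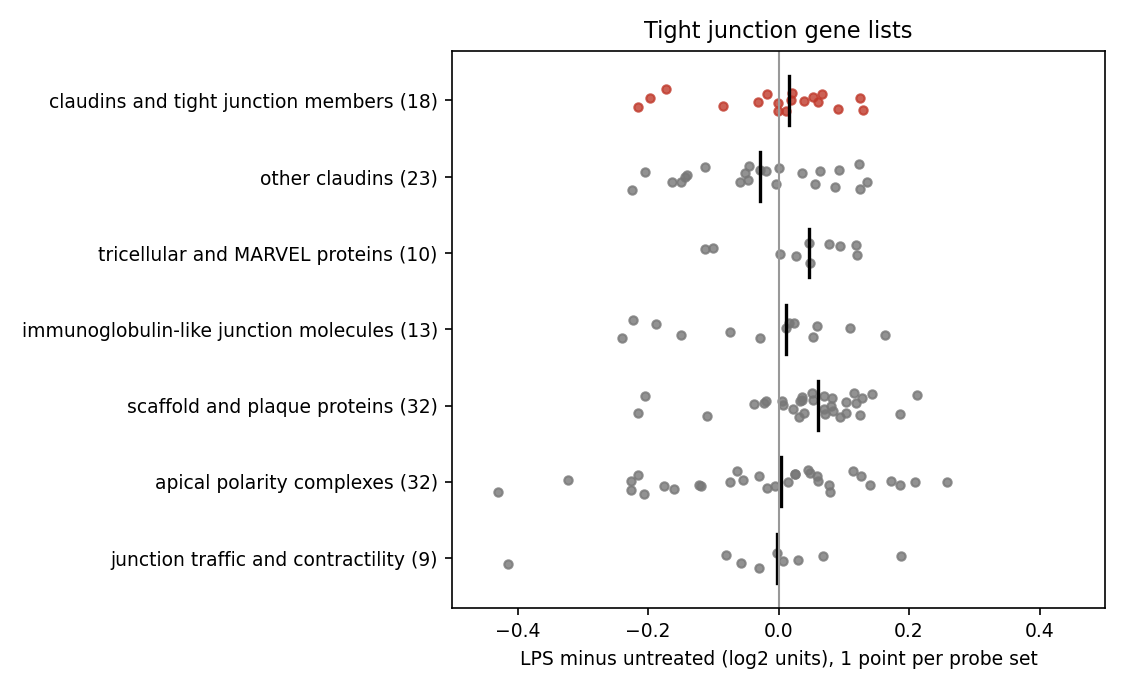
LPS minus untreated (log2 units), 1 point per probe set, for the claudin and tight junction members (red) and 6 other tight junction lists (grey), with the number of probe sets in brackets and the median of each list as a black bar. The medians lie between -0.03 and 0.06, and the points of the members lie between -0.22 and 0.13.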

How the data were processed

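RNA of 4 AGS samples was labelled as biotinylated cRNA and hybridised to 1-colour Affymetrix arrays, per the labels' protocols. The authors deposited a table of log2 expression values for 54675 probe sets. Per the submitters' processing notes, MAS5 and RMA were used; which step each served, and the background and normalization settings, are not given in the sources used here. The values have the form of RMA output, which compresses differences of dim probe sets. No detection calls were used, and precision is limited by the number of arrays.

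The 62 control probe sets were left out. Per the platform annotation, 41091 of the others had 1 symbol, 1801 several and 11721 none. LPS and untreated arrays were compared over all 54613 probe sets with limma 3.58.1 in R 4.3.3 (two-sided, lmFit and trended eBayes, no covariates) and Benjamini-Hochberg adjustment. Nothing says whether the cultures of a group were independent beyond the design's mention of 2 experiments, so p-values measure the spread between these arrays. Trended eBayes draws the spread of each probe set toward that of probe sets of like brightness. Each SE, interval and p-value therefore does not rest on the probe set's own spread alone. Members and lists were chosen with earlier results of these data known. Named genes are the members and, in each other list, the 2 probe sets with the smallest p. Alternatives were 11 settings, given in the closing section. Promoter sequences are RefSeq's (GRCh38.p14). Figures used matplotlib 3.10.9.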

Additional observations from a re-analysis of the deposited data

How the results depend on the processing

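The count of tight junction probe sets past the adjusted threshold was 0 in each direction under all 11 alternatives, and so were those of the other tight junction lists and of all probe sets. The alternatives were quantile normalization, only probe sets at or above median expression, no intensity trend, a replicate block, no _x_at or _s_at probe sets, the brightest probe set of each gene, the mean of a gene's probe sets, and each array left out in turn. With the replicate block, which pairs arrays by number, 2 of the 18 members had an unadjusted p under 0.05 (limma). Both were lower (CLDN1 218182_s_at, 0.0409, and OCLN 209925_at, 0.0338), with adjusted p = 0.685 for each. Of all probe sets, 6.55% were under that level in this fit, and 3.73% were under it and lower. Same-numbered arrays deviated together across probe sets (r = 0.54), but the labels link them by number only. The median over members was -0.037 to 0.013 when single arrays were left out, and 0.0045 to 0.041 under the other alternatives. Quantile normalization turned CLDN1 222549_at to 0.014 and CLDN3 203953_s_at to -0.0098. The mean of probe sets turned ILDR2 to 0.0027 and MARVELD3 to 0.0066. Leaving out single arrays turned the sign of CLDN1 222549_at (-0.0033 to 0.0012), CLDN2 223509_at (-0.025 to 0.065), CLDN3 203953_s_at (-0.030 to 0.054), CLDN4 201428_at (-0.12 to 0.24), CLDN18 214135_at (-0.048 to 0.18), CLDN18 221132_at (-0.022 to 0.28), CLDN18 221133_s_at (-0.073 to 0.072), CLDN18 232578_at (-0.084 to 0.12), OCLN 227492_at (-0.070 to 0.0072) and OCLN 231022_at (-0.065 to 0.029). The causes of these shifts were not tested.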
